A study of Arabidopsis thaliana with 12 samples.

Results

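Ribosomal proteins of the cytosolic large subunit (60S) were followed in the early Arabidopsis thaliana embryo as a set of 60 listed loci, which code for the large-subunit proteins from RPL3 to RPL19, RPL24 and the acidic stalk proteins RPP0, RPP1 and RPP2. A locus was kept where the ATH1 array carries a probe set annotated to that gene alone, and where several such probe sets exist the member's probe set was to be chosen by its mean brightness over the 12 arrays. This left 38 of the 60 loci, which stand for 19 of 24 proteins and are part of the 13333 genes with such a probe set. Each of the 38 had exactly 1 such probe set, so that brightness made no choice here, and levels are given as a description with no test. Of the 22 loci left out, 4 appear only in probe sets shared by several genes, and RPL3, RPL5, RPL10, RPL11 and RPL24 have no measured locus. The deposited annotation names all members but PGY1 (AT2G27530, an RPL10a gene) by locus tag only, so protein names here follow the standard assignment of Arabidopsis ribosomal proteins. A probe set annotated to 1 gene may still bind RNA of a near-identical paralog, which was not tested.

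The 60S subunit holds the peptidyl transferase centre, where peptide bonds are formed, and the tunnel through which the new protein leaves. On its side stands a flexible stalk, built on RPP0 and carrying RPP1 and RPP2 dimers, which recruits and activates the translation factors that bind GTP, and RPL12 lies at the stalk's base. Plants encode nearly every ribosomal protein in several paralogous genes, and mutants of single 60S genes are known for embryo and leaf polarity defects. The proteins are made in the cytosol, imported into the nucleus and joined to ribosomal RNA in the nucleolus, with the help of assembly factors that do not stay on the finished ribosome.

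The study compared 4 groups of 3 arrays each, all of the ecotype Col-0 grown with 16 h of light and 8 h of dark. Suspensor nuclei, proembryo nuclei and whole-embryo nuclei came from ovules with embryos of the 2 to 16 cell stage, fixed in 0.1% paraformaldehyde, and were taken from tissue-specific marker lines by flow cytometry. Whole-embryo cells were intact embryos of the 8 to 32 cell stage, squeezed out of the ovules and washed, with no fixation listed and another RNA kit. The suspensor is the short file of cells that ties the embryo to the mother tissue, and the proembryo above it forms most of the plant. The labels do not name the promoters of the marker lines, and no suspensor marker on the list of cell type genes was measured. Replicates are called biological without saying whether plants or harvests differed, so the p-values reflect the spread among these arrays, which may be technical.

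Among the marker genes, the embryo regulator BBM averaged 102 intensity units in suspensor nuclei, 226 in proembryo nuclei, 378 in whole-embryo cells and 193 in whole-embryo nuclei. The seed coat gene BAN was bright in all groups, with means of 9448, 6401, 11952 and 7081 units in the same order. Endosperm markers AGL62 and AGL80 averaged between 46.9 and 166 units. Each array was scaled to a 2% trimmed mean of 200.02 units, so a difference is relative to the other signal on that array. The hybridisation controls, labelled RNA added at a fixed amount, read 11.41, 13.00 and 13.89 log2 units in suspensor nuclei, 12.13, 12.65 and 11.67 in proembryo nuclei, 11.57, 11.59 and 11.83 in whole-embryo cells, and 12.32, 11.84 and 12.95 in whole-embryo nuclei.

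The 60S genes were among the brightest features of every array. Their median intensity lay between the 97.8 and 98.9 percentile of all probe sets on each of the 12 arrays, 35 of the 38 stood above the array's median on all of them, and 29 averaged at least 1000 units. AT4G27090 (RPL14) had 11332, 10318 and 9124 units in suspensor nuclei, 13314, 12032 and 8155 in proembryo nuclei, 12417, 16460.2 and 18611 in whole-embryo cells and 11895, 13674 and 8369.6 in whole-embryo nuclei. AT5G27850 (RPL18) had 6919, 4334 and 5704 units in suspensor nuclei, 12831, 17723 and 8939 in proembryo nuclei, 10334, 13949 and 18646 in whole-embryo cells and 16498, 11245 and 7127 in whole-embryo nuclei. AT2G01250 (RPL7) had 6724, 10771 and 9934 units in suspensor nuclei, 11073, 9442 and 8599 in proembryo nuclei, 10992, 12069 and 13068 in whole-embryo cells and 10889, 9572 and 7127 in whole-embryo nuclei. These are the members with the highest mean log2 level over the 12 arrays, which depends on the probes as well as on the RNA and does not rank the genes. All 3 AT5G27850 suspensor values lay below all proembryo values, whereas those of AT4G27090 and AT2G01250 overlapped.

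At the dim end, AT5G48760 (RPL13a) read 153, 229 and 321 units in suspensor nuclei, 246, 298 and 307 in proembryo nuclei, 236, 362 and 414 in whole-embryo cells and 339, 301 and 299 in whole-embryo nuclei. AT4G10450 (RPL9) read 56.02, 47.1 and 101 units in suspensor nuclei, 142, 118 and 73.2 in proembryo nuclei, 84.3, 139 and 157 in whole-embryo cells and 50.04, 129.6 and 87.3 in whole-embryo nuclei, above the array median on 6 of 12 arrays. AT3G51190 (RPL8) read 73.1, 52.6 and 22.03 units in suspensor nuclei, 54.2, 95.2 and 74.5 in proembryo nuclei, 20.1, 80.8 and 45.4 in whole-embryo cells and 76.8, 43.4 and 155 in whole-embryo nuclei. It was above the array median on 2 of 12 arrays and did not pass the filter on dim probe sets, so 37 of the 38 members were tested. No order between groups could be read from these dim values, since the groups overlapped for AT5G48760, AT4G10450 and AT3G51190.

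Summed over the 38 probe sets, the genes held 1.92, 1.79 and 1.58% of all signal in suspensor nuclei, 2.58, 2.49 and 2.33% in proembryo nuclei, 2.14, 2.65 and 3.21% in whole-embryo cells, and 2.48, 2.57 and 1.78% in whole-embryo nuclei. All suspensor arrays lay below all proembryo arrays, while whole-embryo nuclei replicate 3 fell into the suspensor range. By group means, suspensor nuclei were the lowest group for 32 of 38 members, against 23.5% of all probe sets, and whole-embryo cells the highest for 24 of 38, against 25.9% of all. The plot of signal share against hybridisation controls sets these values side by side. Suspensor replicate 1 had the lowest control level of the 12 arrays and replicate 3 the highest, and the 60S share was below every proembryo array on both. Within suspensor nuclei and within whole-embryo nuclei, the array with the highest control level had the lowest share (1.58 and 1.78%). Within proembryo nuclei and whole-embryo cells, the array with the lowest control level did (2.33 and 2.14%). The part of the control level in the share was not tested.

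**Figure D1:**
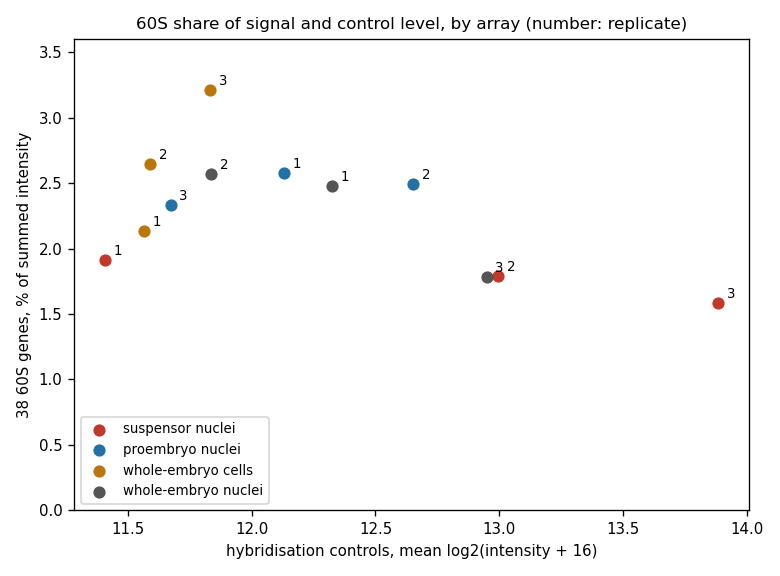
Share of summed intensity held by the 38 measured 60S genes (vertical axis, percent) against the mean log2 level of the hybridisation controls (horizontal axis), 1 point per array, numbered by replicate. The suspensor arrays sit at 1.92, 1.79 and 1.58% across control levels of 11.41 to 13.89, and whole-embryo nuclei replicate 3 at 1.78%.

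**Figure D2:**
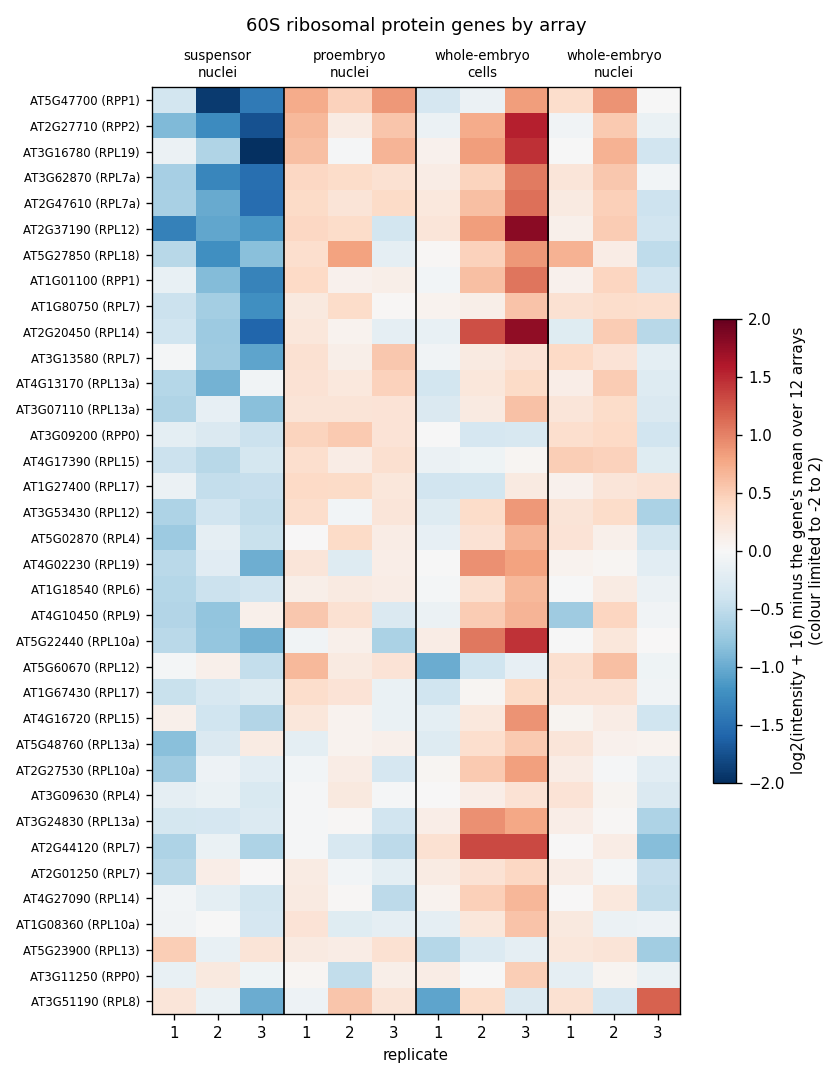
Level of 36 of the genes (rows, locus tag and protein) on the 12 arrays (columns, replicate numbers within groups), as log2(intensity + 16) minus the gene's mean over the arrays, blue for lower and red for higher. Rows run by the difference of suspensor minus proembryo nuclei, most negative on top, with the untested AT3G51190 last, and the 3 suspensor columns are mostly blue.

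The first comparison asked how 60S transcripts in the nuclei of the suspensor differ from those in the nuclei of the proembryo. Of the 37 members tested, 5 fell and none rose in suspensor nuclei at an adjusted p under 0.05 (limma, Benjamini-Hochberg over 12787 probe sets), where 2.03% of all probe sets passed, 1.34% as lower and 0.696% as higher. The 5 were stalk genes of RPP1 and RPP2, both measured RPL7a genes and 1 of the RPL12 genes. The arrays of the groups did not overlap for 22 of 37 members, all of them lower in suspensor nuclei, against 9.66% of all probe sets lower without overlap and 19.3% in either direction. At an unadjusted p under 0.05 there were 22 members, against 16.0% of all probe sets. Bright probe sets separated more often: of the 1279 in the brightest 10%, 60 passed as lower and 21 as higher. Among those 1279, 410 did not overlap in either direction and 372 had an unadjusted p under 0.05. The median log2 difference of the members was -0.62, against 0.010 over all probe sets and -0.061 over the brightest 10%, and 35 of 37 members lay below 0, against 49.1% of all. In such bulk samples a smaller number of nuclei of a kind and less RNA per nucleus cannot be told apart.

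The largest differences were those of a pair of stalk genes, 1 of RPP1 and 1 of RPP2. AT5G47700 (RPP1) read 879, 288 and 416 units in suspensor nuclei, against 1921, 1564 and 2085 in proembryo nuclei, and fell by 1.92 on the log2 scale (SE 0.34, adjusted p = 0.00923), with every suspensor value below the lowest proembryo value. AT2G27710 (RPP2), whose product pairs with RPP1 on the stalk, read 535, 406 and 287 units in suspensor nuclei, against 1575, 1121 and 1469 in proembryo nuclei, and fell by 1.75 (SE 0.28, adjusted p = 0.00581). All its suspensor values were below its lowest proembryo value. The second RPP1 gene, AT1G01100, read 4006, 2437 and 1759 units in suspensor nuclei, against 5871, 4734 and 4804 in proembryo nuclei, a log2 difference of -0.98 (SE 0.29, adjusted p = 0.0837) that did not pass although the groups did not overlap.

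RPP0, which anchors the RPP1 and RPP2 dimers to the ribosome, has 2 measured genes. AT3G09200 read 8506, 7954 and 7252 units in suspensor nuclei, against 13220.3, 13951 and 11789 in proembryo nuclei, a log2 difference of -0.71 (SE 0.23, adjusted p = 0.126) without overlap. AT3G11250 read 291, 374 and 304 units in suspensor nuclei, against 331, 225 and 350.4 in proembryo nuclei, a difference of 0.11 (SE 0.27, adjusted p = 0.884) with overlapping groups. Its sign turned, to -0.080, without proembryo replicate 2. The stalk genes thus ranged from -1.92 to 0.11.

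RPL7a, a large-subunit protein of a family that binds sharp bends in RNA called kink-turns, was measured by both of its listed genes. AT3G62870 read 5017, 3219 and 2784 units in suspensor nuclei, against 10581, 10255 and 9832 in proembryo nuclei, and fell by 1.52 (SE 0.25, adjusted p = 0.00581). AT2G47610 read 1104, 855 and 597 units in suspensor nuclei, against 2266, 2077 and 2289 in proembryo nuclei, and fell by 1.40 (SE 0.27, adjusted p = 0.0167). The proembryo arrays lay close together for both genes and the suspensor arrays were spread below them.

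RPL12, at the base of the stalk, was measured by 3 genes. AT2G37190 read 1054, 1321 and 1208 units in suspensor nuclei, against 3625, 3528 and 2117 in proembryo nuclei, and fell by 1.32 (SE 0.27, adjusted p = 0.0199). AT3G53430 read 1363, 1608 and 1497 units in suspensor nuclei, against 2671, 2019 and 2475 in proembryo nuclei, a difference of -0.67 (SE 0.26, adjusted p = 0.214). AT5G60670 read 2081, 2293 and 1534 units in suspensor nuclei, against 3350.4, 2427 and 2575 in proembryo nuclei, a difference of -0.50 (SE 0.25, adjusted p = 0.338). For all 3 genes the suspensor arrays lay below the proembryo arrays.

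**Figure D3:**
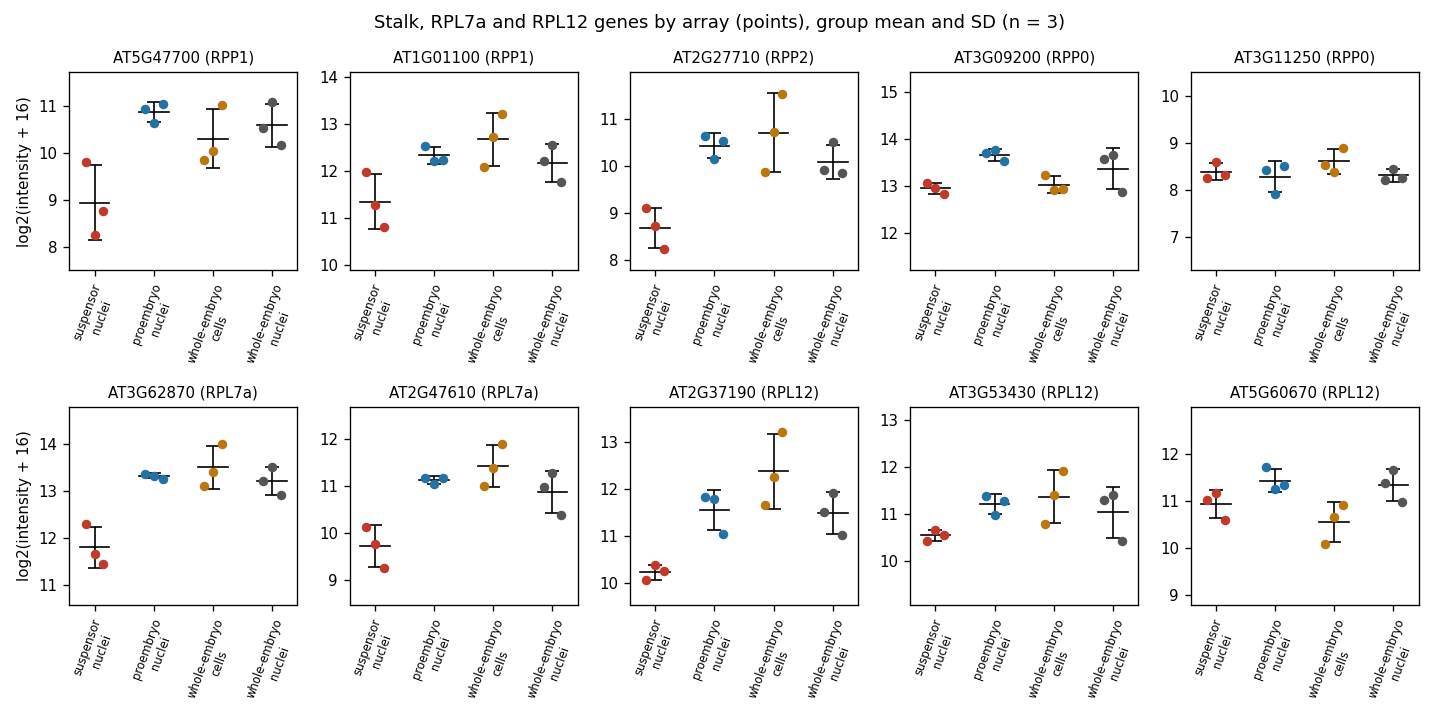
Level of the 10 stalk, RPL7a and RPL12 genes on each array (points), with group mean and SD (n = 3), as log2(intensity + 16), 1 panel per gene with a vertical axis of the same length. AT5G47700, AT2G27710, AT3G62870, AT2G47610 and AT2G37190 show the suspensor arrays below those of the other groups, and AT3G11250 shows none apart.

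Paralogs were then set against each other within arrays, for each protein with 1 gene past the threshold and another not, which gave 3 pairs of 2 proteins. The log2 ratio of AT5G47700 to AT1G01100 was -2.41 ± 0.53 on suspensor arrays and -1.46 ± 0.23 on proembryo arrays (SD, n = 3 each), so the pair differed in its change by -0.94. The ratio of AT2G37190 to AT3G53430 was -0.32 ± 0.044 on suspensor arrays and 0.34 ± 0.52 on proembryo arrays, a difference of -0.66. Against AT5G60670 it was -0.70 ± 0.32 on suspensor arrays and 0.12 ± 0.41 on proembryo arrays, a difference of -0.82. Each pair had a two-sided exact permutation p of 0.1, the smallest that 3 against 3 arrays allow (0.1 after Benjamini-Hochberg over the pairs), so no pair could pass. The pairs were chosen because 1 gene passed and the other did not in this same comparison, so the sign of these differences follows from the choice and supports nothing.

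Of the other proteins, RPL19 stood out by spread. AT3G16780 read 752, 532 and 74.2 units in suspensor nuclei, against 1243, 800.1 and 1314 in proembryo nuclei, a difference of -1.72 (SE 0.54, adjusted p = 0.113) in which suspensor replicate 3 alone lay below the array median. This gene, AT1G80750 and the RPL4, RPL6, RPL10a (PGY1 among them), RPL15 and RPL17 genes of this comparison fall outside the rule for naming genes. So do, further on, AT3G13580, AT2G20450, AT5G22440, AT4G02230 and AT5G15550. All of them were chosen after their values were seen. AT5G27850 (RPL18) differed by -1.19 (SE 0.31, adjusted p = 0.0535) and AT1G80750 (RPL7) by -0.98 (SE 0.25, adjusted p = 0.0535), both without overlap. Differences within 0.3 log2 units of 0 were held by 11 members, among them PGY1 (-0.26, SE 0.24), named for a leaf polarity mutant. The bright AT4G27090 (RPL14) stood at -0.10 (SE 0.25) and AT2G01250 (RPL7) at -0.11 (SE 0.24).

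RPL4 and RPL17, which line the exit tunnel, had differences that did not pass. AT1G27400 (RPL17) read 3594, 2778 and 2817 units in suspensor nuclei, against 5153, 5084 and 4527 in proembryo nuclei, a difference of -0.69 (SE 0.21, adjusted p = 0.105), and AT1G67430 (RPL17) stood at -0.50 (SE 0.22). AT5G02870 (RPL4) read 5423, 7953 and 6649.8 units in suspensor nuclei, against 9052, 11751 and 9986 in proembryo nuclei, a difference of -0.63 (SE 0.24, adjusted p = 0.188), and AT3G09630 (RPL4) stood at -0.26 (SE 0.22). The suspensor arrays of AT1G27400 and AT5G02870 lay below their proembryo arrays. The RPL15 genes AT4G17390 and AT4G16720 differed by -0.71 (SE 0.23) and -0.35 (SE 0.24), and the RPL6 gene AT1G18540 by -0.61 (SE 0.20). The RPL10a genes, whose product belongs to the mobile stalk on the other side of the subunit, stood at -0.55 (AT5G22440), -0.26 (PGY1) and -0.082 (AT1G08360), with overlapping groups for all 3.

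The 5 calls depended on the fit. Without the intensity trend in limma no member passed (17 of all probe sets did), after centring each array on its median 3 did, and without proembryo replicate 1 or suspensor replicate 3 also 3. Without suspensor replicate 1, 10 passed, all lower, among them AT3G16780, AT1G01100, AT5G27850, AT1G80750 and AT3G13580 (RPL7). With the hybridisation control level as a covariate the count was 5 and the median difference -0.62. Actin control probe sets at the 3' end exceeded those at the 5' end by 4.22 ± 0.44 log2 units in suspensor arrays and by 5.03 ± 0.20 in proembryo arrays (SD, n = 3 each; exact permutation p = 0.1). Ubiquitin controls went the other way, at 5.01 ± 0.37 in suspensor and 4.61 ± 0.12 in proembryo arrays (exact permutation p = 0.2). GAPDH controls stood at 5.15 ± 0.70 and 5.23 ± 0.29 (exact permutation p = 0.8). The part of these signs of RNA quality in the 60S difference was not tested.

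The next comparison set suspensor nuclei against whole-embryo nuclei and shares the suspensor arrays with the one above. Of 37 members, 6 fell and none rose, where 1.56% of all probe sets passed, 0.962% as lower and 0.594% as higher. They were AT5G47700 (-1.65, SE 0.34, adjusted p = 0.0238), AT2G27710 (-1.41, SE 0.28), AT3G62870 (-1.40, SE 0.25), AT2G37190 (-1.26, SE 0.27), AT2G47610 (-1.15, SE 0.27) and AT1G80750 (-1.11, SE 0.25). The median was -0.49, against -0.0060 over all probe sets, and 33 of 37 members lay below 0, against 50.4% of all. Without overlap 13 members were lower, against 9.74% of all probe sets (18.9% in either direction). An unadjusted p under 0.05 was held by 19 members, against 14.3% of all. Bright probe sets again separated more often: of the 1279 in the brightest 10%, 44 passed as lower and 19 as higher. Among those 1279, 356 had an unadjusted p under 0.05, and their median log2 difference was -0.10. Non-overlap in either direction was also more common among them than over all probe sets. The share of all probe sets is therefore a low reference for the 13 members without overlap. Whole-embryo nuclei read 1457, 2141 and 1129.9 units for AT5G47700 and 955, 1448 and 913 for AT2G27710, above all suspensor values of each. For the RPL7a genes they read 9435, 11607 and 7691 units (AT3G62870) and 1984, 2437 and 1309 (AT2G47610), again above all suspensor values.

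AT1G80750, an RPL7 gene, read 595, 496 and 334 units in suspensor nuclei, against 994, 1028 and 1019 in whole-embryo nuclei, which hardly varied. AT2G37190 read 2927, 3879.8 and 2087 units in whole-embryo nuclei, above its suspensor values given before. The calls depended on the arrays: none passed without the intensity trend, without suspensor replicate 2, or without whole-embryo nuclei replicate 1 or 2, and 1 passed after centring, without suspensor replicate 3 or with all 12 arrays in the fit. The median stayed between -0.63 and -0.46 whichever of the 9 nuclei arrays was left out.

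**Figure D4:**
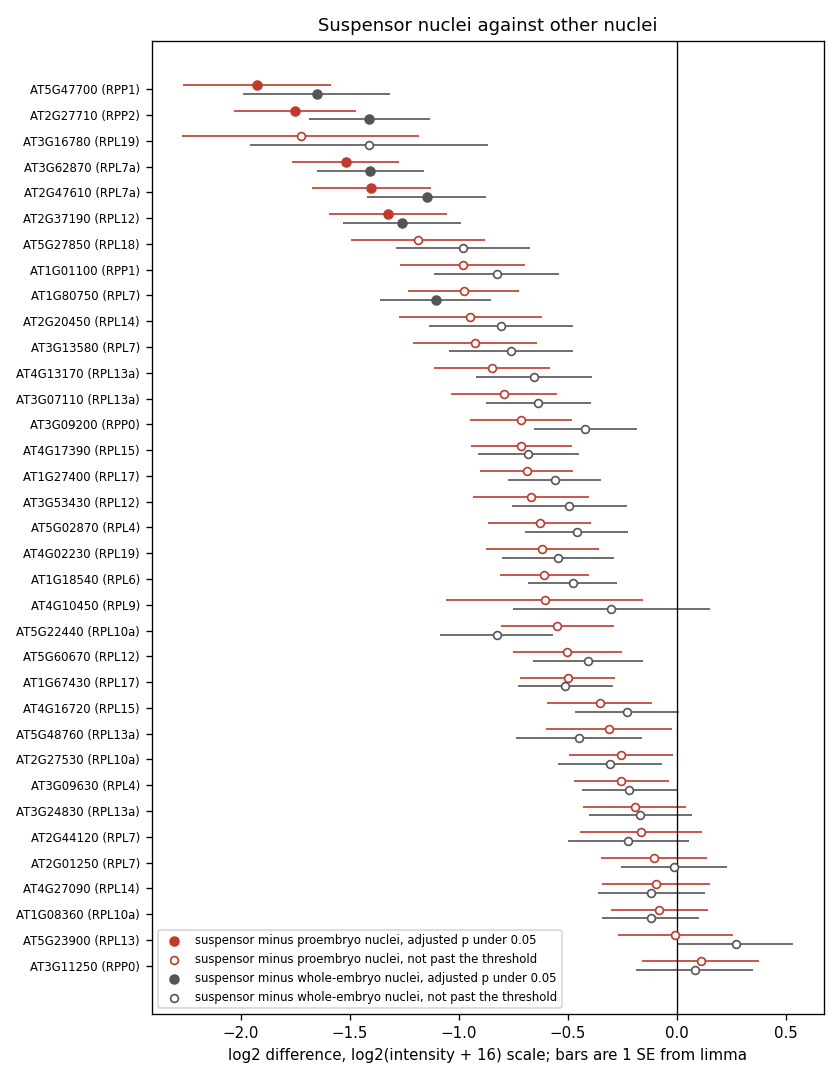
Log2 difference of suspensor minus proembryo nuclei (red) and suspensor minus whole-embryo nuclei (grey) for 35 of the tested 60S genes (rows), with 1 SE from limma. Filled points have an adjusted p under 0.05: 5 against the proembryo and 6 against whole-embryo nuclei, and 34 and 33 of the 35 points lie below 0.

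No 60S gene was called between proembryo and whole-embryo nuclei: 0 of 37 members and 0 of 12787 probe sets passed in limma (0%). At an unadjusted p under 0.05 no member passed either, against 3.14% of all probe sets. The members' median difference was 0.13, and 34 of 37 lay within 0.3 log2 units of 0. No member was without overlap, against 8.23% of all probe sets, and 9 lay below 0, against 51.4% of all. Among the smallest p values were those of AT3G09200 (RPP0) at 0.29 (SE 0.23) and AT2G27710 (RPP2) at 0.34 (SE 0.28), each with an adjusted p of 1.00. AT2G27710 read 1575, 1121 and 1469 units in proembryo nuclei, against 955, 1448 and 913 in whole-embryo nuclei. AT3G09200 read 12241, 12882 and 7463 units in whole-embryo nuclei, where replicate 3 was the low array, and the median difference of the members turned to -0.055 without that replicate.

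The last comparison set the RNA of whole-embryo cells against that of whole-embryo nuclei, which also differ in stage, fixation and RNA kit, so that these cannot be told apart. No member passed: 0 of 37 in limma, where 6.77% of all probe sets did, 2.71% higher and 4.05% lower. At an unadjusted p under 0.05 there were 6 members, against 23.9% of all probe sets, and 4 of 37 did not overlap, against 28.6% of all. The median was 0.30, against 0.0056 over all probe sets, with 25 members above 0 and 12 below, against 49.5% of all probe sets below. The cell arrays were themselves spread, with a median SD over members of 0.42 log2 units, against 0.35 in whole-embryo nuclei.

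The smallest p values belonged to genes of 3 proteins, named after their values were seen since none passed. AT2G44120 (RPL7) read 2259, 4617 and 4593 units in whole-embryo cells, against 1833, 2040.02 and 1005 in whole-embryo nuclei, a log2 difference of 1.22 (SE 0.36, adjusted p = 0.066) without overlap. AT5G60670 (RPL12) read 1066, 1616 and 1907 units in whole-embryo cells, against 2658, 3229.6 and 2004 in whole-embryo nuclei, a difference of -0.79 (SE 0.30, adjusted p = 0.135), and every cell value was below every nuclear one. AT3G24830 (RPL13a) read 7030.3, 12050.2 and 10992 units in whole-embryo cells, against 7005, 6485 and 4166 in whole-embryo nuclei, a difference of 0.76 (SE 0.30, adjusted p = 0.145). Of the other RPL12 genes, AT2G37190 read 3221, 4879 and 9588 units in whole-embryo cells and differed by 0.89 (SE 0.38, adjusted p = 0.189). AT3G53430 differed by 0.32 (SE 0.35, adjusted p = 0.613). No difference between paralogs was tested in this comparison.

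Among the stalk genes, AT2G27710 read 921, 1689 and 2954 units in whole-embryo cells and differed by 0.61 (SE 0.39), and AT5G47700 read 898, 1042 and 2042 units in whole-embryo cells and differed by -0.29 (SE 0.35). AT1G01100 read 4306, 6731 and 9384 units in whole-embryo cells, against 4718, 5978 and 3428 in whole-embryo nuclei. AT3G09200 read 9646, 7736 and 7798 in whole-embryo cells and differed by -0.34 (SE 0.27), and AT3G11250 read 358, 319.7 and 462 in whole-embryo cells, against 282, 337 and 292 in whole-embryo nuclei. The stalk genes therefore had no common sign here, and none passed. Without whole-embryo cells replicate 1, 6 members passed, all higher: AT2G20450 (RPL14), AT2G44120, AT2G37190, AT5G22440 (RPL10a), AT3G24830 and AT4G02230 (RPL19), and the median was 0.47. Without cells replicate 3 the median was 0.062, and with all 12 arrays in the fit AT2G44120 alone passed (adjusted p = 0.0270).

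The rest of the ribosome was described from lists of loci, with no test of the lists, of which the arrays measured 35 of 60 other 60S genes, 46 of 95 small-subunit genes and 9 of 28 assembly factors. In suspensor against proembryo nuclei, 9 of 32 other 60S genes (RPL21 to RPL40 without RPL24) fell and none rose, with a median of -0.64, and 5 of 44 small-subunit (40S) genes fell and none rose, with a median of -0.69, against 1.34% of all probe sets lower and 0.696% higher. Of the other 60S genes, AT2G37600 (RPL36) read 177, 167 and 170.1 units in suspensor nuclei, against 639.7, 398 and 393 in proembryo nuclei, and fell by 1.36 (SE 0.28, adjusted p = 0.0199). AT3G06680 (RPL29) read 2146, 2195 and 1334 units in suspensor nuclei, against 4403, 4665 and 3486 in proembryo nuclei, and fell by 1.16 (SE 0.24, adjusted p = 0.0199). The 40S genes AT3G04230 (RPS16) and AT5G07090 (RPS4) fell by 1.45 (SE 0.28) and by 1.06 (SE 0.23), with AT3G04230 at 199.6, 165 and 126 units in suspensor nuclei, against 415, 554 and 446 in proembryo nuclei, and AT5G07090 at 510.3, 577 and 569 units in suspensor nuclei, against 1198, 1211 and 1106 in proembryo nuclei. The members' median differed from these by 0.021 and 0.074 log2 units.

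Assembly factors of the ribosome gave 3 of 9 lower, against 1.34% of all probe sets, and none higher, with a median of -0.80. AT3G03920 (GAR1) and AT5G08180 (NHP2) code for proteins of the particles that guide pseudouridine formation in ribosomal RNA. AT3G03920 read 1042, 933 and 723 units in suspensor nuclei, against 3229, 2728 and 3312 in proembryo nuclei, and fell by 1.77 (SE 0.23, adjusted p = 0.00134). AT5G08180 read 468, 345 and 530.4 units in suspensor nuclei, against 2411, 1084 and 1476 in proembryo nuclei, and fell by 1.79 (SE 0.30, adjusted p = 0.00710). AT5G15550 (WDR12), of a complex that matures the 60S subunit, fell by 1.28 (SE 0.32, adjusted p = 0.0442). All arrays of AT3G03920 and AT5G08180 in suspensor nuclei lay below all in proembryo nuclei.

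None of the 3 measured translation factors (median -0.61) and none of the 3 nuclear-encoded plastid ribosomal protein genes (median -0.35) passed, with 2 and 1 of them at an unadjusted p under 0.05. AT5G19510 (EF1B, an elongation factor subunit) differed by -0.65 (SE 0.24) and AT1G54270 (EIF4A-2, a helicase of translation initiation) by -0.61 (SE 0.24), and the plastid genes AT2G43030 (PRPL3) and AT5G65220 (PRPL29) by -0.76 (SE 0.35) and -0.35 (SE 0.27). A small share of each list was measured, 3 of 18 for both of these.

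In whole-embryo cells against whole-embryo nuclei, where 4.05% of all probe sets passed as lower and 2.71% as higher, the counts of the larger lists lay near those shares. Among other 60S genes, 2 of 32 fell: AT4G29410 (RPL28), at 3631, 3004 and 4925 units in whole-embryo cells, against 7680.04, 7288 and 7287 in whole-embryo nuclei, by 0.97 (SE 0.26, adjusted p = 0.0451), and AT2G19740 (RPL31), at 639, 719 and 705 units in whole-embryo cells, against 1027, 1810.1 and 1536 in whole-embryo nuclei, by 1.03 (SE 0.27, adjusted p = 0.0467). Among 45 small-subunit genes, 2 rose and 2 fell, among them AT3G56340 (RPS26) at -1.16 (SE 0.25, adjusted p = 0.0194). AT5G09490 (RPS15) read 441, 450.4 and 186 units in whole-embryo cells, against 63.2, 44.8 and 10.4 in whole-embryo nuclei, where it was below the array median on all 3. It is 1 of the 2 that rose, but it met the filter on dim probe sets only through the 3 cell arrays, so no fold is given for it. The plastid gene AT2G43030 rose by 1.32 (SE 0.29, adjusted p = 0.0231), while no assembly factor (median 0.48, 1 of 9 at an unadjusted p under 0.05) and no translation factor (median -0.24, 0 of 3) passed. AT2G43030 read 1013, 989.9 and 871 units in whole-embryo cells, against 322, 564 and 288 in whole-embryo nuclei, and AT3G56340 read 3116, 2878 and 3353 units in whole-embryo cells, against 7265, 8236 and 5638 in whole-embryo nuclei, both without overlap. AT5G65220 differed by 0.20 (SE 0.27), AT1G54270 by 0.41 (SE 0.24) and AT5G19510 by -0.31 (SE 0.28). The 2 assembly factors with the smallest p were AT3G23620 (RPF2) at 1.43 (SE 0.44) and AT5G14520 (PES) at 0.91 (SE 0.49), and the 25S ribosomal RNA probe set averaged 9514 units (SD 1158) on the cell arrays, against 22152 (SD 1941) on the whole-embryo nuclei arrays (n = 3 each; exact permutation p = 0.1).

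**Figure D5:**
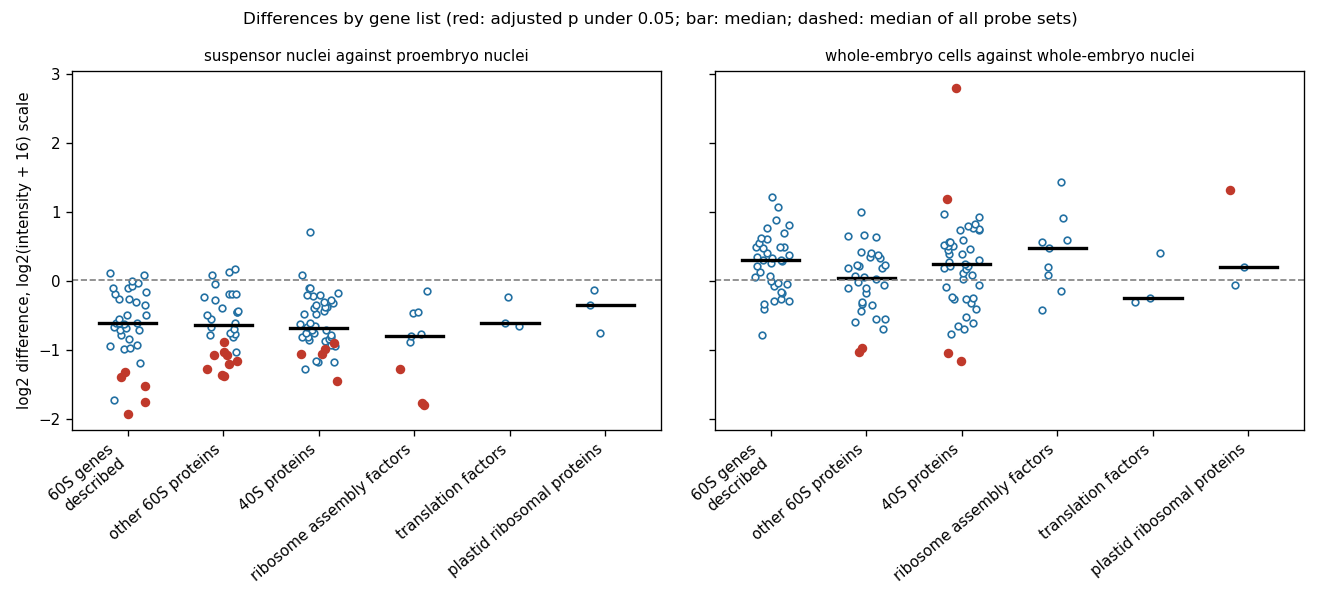
Log2 differences of the tested genes of each list (points), for suspensor against proembryo nuclei (left panel) and whole-embryo cells against whole-embryo nuclei (right panel), with red points past an adjusted p of 0.05, black bars at list medians and a dashed line at the median of all probe sets. The left medians are -0.62 for the 37 60S genes described, -0.64, -0.69, -0.80, -0.61 and -0.35 for the others, and the right ones 0.30, 0.039, 0.25, 0.48, -0.24 and 0.20.

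Among the members, brightness and difference went together weakly. The 19 brighter members had a median of -0.50 in suspensor against proembryo nuclei and the 18 dimmer ones -0.76, with a Spearman's rho of 0.32 between mean level and difference over 37 genes that share the same arrays. This is a description across genes, which are not independent replicates. Paralogs of 1 protein also differed in size: the 4 tested RPL7 genes ranged from -0.98 to -0.11, the 4 RPL13a genes from -0.85 to -0.19 and the RPL14 pair stood at -0.95 (AT2G20450) and -0.10 (AT4G27090).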

How the data were processed

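The deposited values are probe set intensities, linear and 1 per probe set, of 12 ATH1 arrays hybridised with biotin-labelled RNA. The submitters' processing notes name MAS5 and affy 1.32.1 without their roles, and the files show that each array had been scaled by the authors to a 2% trimmed mean of 200.02. Gene names came from the platform annotation, with symbols from a TAIR10.1 gene table (no coordinates used). Array number limits precision.

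From these, log2(intensity + 16) was computed, and fold changes are on that scale, which understates those of dim genes. Probe sets above their array's median on at least 3 arrays of a fit were kept, and 64 control probe sets left out. limma 3.58.1 (lmFit, eBayes with an intensity trend, R 4.3.3) was fitted to the 9 nuclei arrays and, for cells, to 6 arrays, with Benjamini-Hochberg adjustment over all kept probe sets at 0.05. Single values were compared by exact two-sided permutation tests (SciPy 1.17.1). On simulated data with 12688 probe sets shaped like the suspensor and proembryo arrays, the test found 56% of the genes shifted by 1.5 log2 units, 8% of those shifted by 1, and 1 unshifted gene. Replicate numbers did not pair the samples.

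Members and lists were chosen with earlier results of these data known. Named genes are the 5 largest past the threshold in each direction (10 for cells), or else the 3 smallest p, the stalk genes, the paralog pairs, the 3 brightest and 3 dimmest members, and the 2 smallest p of each other list in 2 comparisons. Genes named beyond these are listed as such in the text. Alternatives were the pseudocount, the filter, the trend, the scaling, the arrays in the fit, a replicate block and leaving out each array. Sequences and coordinates are not used here, and 2 members that enter the fits and counts are not reported by name.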

Additional observations from a re-analysis of the deposited data

How the results depend on the processing

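The members' median difference kept its sign under all alternatives run in 3 of the comparisons, from -0.72 to -0.55 for suspensor against proembryo nuclei, but turned to -0.055 for proembryo against whole-embryo nuclei without whole-embryo nuclei replicate 3. For suspensor against proembryo nuclei (5 calls), the count was 0 without the intensity trend and 3 after centring, and 3 to 10 with 1 array left out. For suspensor against whole-embryo nuclei (6 calls), it was 0 without the trend, 1 after centring, 1 with all 12 arrays, and 0 to 7 with 1 array left out. For whole-embryo cells against nuclei (0 calls), it was 1 with all 12 arrays and 0 to 6 with 1 array left out. The cause was not tested. Centring put the median of all probe sets at -0.090 for suspensor against proembryo nuclei, -0.11 against whole-embryo nuclei and 0.14 for cells. It had been 0.010, -0.0060 and 0.0056. The members' median minus that of all probe sets was -0.63, -0.49 and 0.29. Centring cannot change these values, since it shifts all probe sets of an array alike. Quantile normalization can change them, and gave -0.53, -0.40 and 0.24. The difference of AT3G11250 in suspensor against proembryo nuclei ran from -0.080 (adjusted p = 0.922, without proembryo replicate 2) to 0.22 with 1 array left out. The hybridisation control covariate, added after seeing the data, left the counts at 5, 6, 0 and 0. Over all probe sets, calls for suspensor against proembryo nuclei were 17 without the trend and 62 after centring, in place of 260.

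Replicate numbers are shared between the groups, but same-numbered arrays did not deviate together: their correlations ran from -0.14 to 0.10 and 0 of 18 passed 0.1. With the replicate block, 6 members were called for suspensor against proembryo nuclei, 6 against whole-embryo nuclei, and 0 in each of the others. On simulated data none of the changes of 0.5 log2 units was found in any comparison. The simulated spread was pooled over the 4 groups, so this does not settle which differences of the members were detectable.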
